A study of Mus musculus with 100 samples.

Results

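Between embryonic day 8.5 (E8.5) and E9.5, 12 of 15 tail-bud genes, 8 of 14 segmentation genes and 8 of 14 Nodal pathway genes fell in whole mouse embryos labelled KI, beside 16.6% of all genes tested, and 13 of 15 proneural factors rose, beside 15.9% of all genes. Most hypoxia and integrated stress response genes also rose in KI embryos, where 1 gene of each list rose in control embryos. The libraries described are 3 KI embryos at E8.5 and 3 at E9.5, taken by the genotype and stage in their titles, out of 100 samples in the series and 12 embryo RNA libraries. KI embryos carry Mll3flox/KI;Mll4flox/KI;Sox2-Cre, and the controls, again 3 per stage, carry Mll3flox/KI;Mll4flox/+;Sox2-Cre, so all 12 embryos share the Mll3 alleles and the Cre and differ in the second Mll4 allele. Sox2-Cre acts in the epiblast, the source of the embryo proper, and largely spares extraembryonic tissue. The labels do not spell out KI; from general knowledge of such alleles, and not from the labels or files, it is taken to stand for alleles that encode an enzyme-dead protein. Ages are given as embryonic days only, with no somite counts.

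MLL3 and MLL4, encoded by Kmt2c and Kmt2d, are methyltransferases that place the H3K4 monomethyl mark at enhancers and work in complexes with the demethylase UTX. The day between these stages is one of rapid organ formation in the mouse. The embryo turns, somites are added from a growing tail bud, the neural tube closes and makes its first neurons, the heart loops and beats, primitive red cells enter the circulation, and limb buds appear.

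Gene totals of the 6 KI libraries ran from 22.00 to 24.15 M reads, against 20.09 to 26.95 M over all 12. Values below are CPM, the read count of a gene relative to the size of its library after scaling by the TMM method, and 3 reads, the most that a count of 0 allows, equal 0.108 to 0.150 CPM, which covers counting error only. Replicate embryos differed by more than sampling noise, with a chi-square per degree of freedom of 7.97 to 26.44. On the first principal component (36.5% of the variance) KI embryos lay at -47.8 to -36.3 at E8.5 and at 8.52 to 25.3 at E9.5, and controls at -37.6 to -20.5 and at 47.6 to 55.1. KI E8.5 replicate 2 had 100.7 CPM summed over 4 Y-linked genes and Xist at 0.471 CPM, whereas the other 5 KI embryos had Xist at 813 to 1437 CPM, so the stages differ in sex composition. The 9 embryos of the 12 under 5 CPM of these genes (0 to 0.414 CPM) are termed the embryos with low Y-linked reads. The titles number the embryos, each leading number occurs at 1 stage only, and 2 of the KI embryos at E9.5 share one. Whatever these numbers stand for therefore cannot be told apart from stage, and p-values measure only the spread between these embryos.

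Kmt2c RNA rose between the stages in KI embryos and Kmt2d RNA did not pass the test. Kmt2c was at 33.9, 39.1 and 38.3 CPM at E8.5 and at 45.3, 61.6 and 54.6 CPM at E9.5. The E9.5 embryos were all above the E8.5 embryos, a log2 fold change of 0.54 (SE 0.10, edgeR adjusted p = 0.000542), and the change in controls was 0.18 (difference between genotypes 0.36, adjusted p = 0.144). Kmt2d was at 190 ± 12.6 CPM (SD, n = 3) at E8.5 and 169 ± 4.63 at E9.5 (log2 fold change -0.17, adjusted p = 0.0602). Its fall was called by DESeq2 (adjusted p = 0.0461), with RLE scaling or scaling without the 100 most abundant genes, and without KI E8.5 replicate 1 (-0.23, adjusted p = 0.0307). With a trend on transcript length removed, the change of Kmt2d became -0.47 (adjusted p = 5.6e-05) and that of Kmt2c 0.25 (adjusted p = 0.0254). Neither value tests the alleles, because the tables give 1 count per transcript. Of the 10 complex members measured, Wdr5, Dpy30 and Paxip1, all core or accessory subunits, fell by 0.29, 0.29 and 0.26 on the log2 scale.

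The first comparison asked what changes in KI embryos over this day, and the second whether that change differs from the one in controls. Of 15436 genes tested, 5012 (32.5%) changed in KI embryos, 2456 (15.9%) higher and 2556 (16.6%) lower at E9.5, in edgeR's quasi-likelihood test with a Benjamini-Hochberg adjusted p under 0.05, termed called below. At least 2-fold changes were 679 (4.4%) higher and 261 (1.69%) lower. Controls had 3738 called genes (24.2%), 12.2% higher and 12.1% lower. The KI and control changes share no library and were fitted with 1 estimate of the spread. Both groups were called in the same direction for 985 higher and 1031 lower genes, and in opposite directions for 75 genes higher in KI and lower in controls and for 36 with the reverse. The difference between the 2 stage changes was called for 1024 genes (6.63%), 524 (3.39%) more positive and 500 (3.24%) more negative in KI. Leaving out KI E9.5 replicate 2 left 3715 called KI changes and 607 called differences, leaving out control E8.5 replicate 3 left 654 differences, and the 9 embryos with low Y-linked reads gave 3896 and 483.

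**Figure D1:**
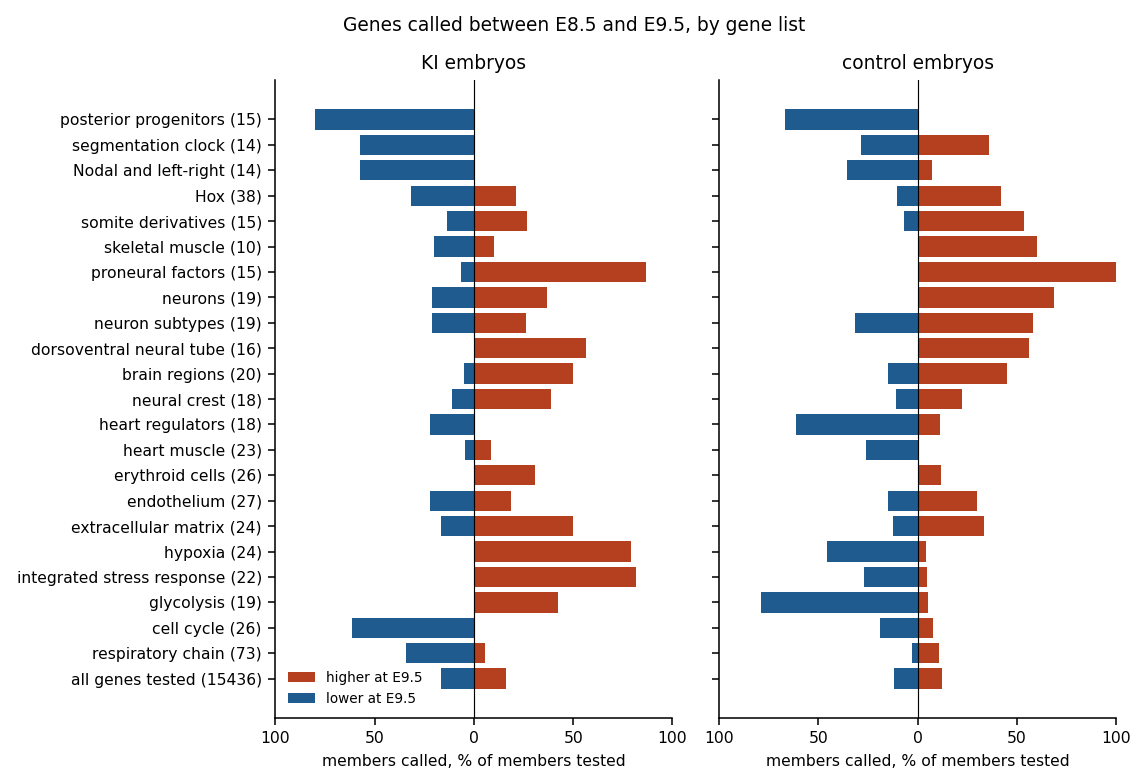
Bars give the percentage of tested members of each gene list that were called higher (right) or lower (left) at E9.5, in KI embryos and in controls, with all genes tested as the last bar. Hypoxia and integrated stress response genes were mostly called higher in KI embryos (19 of 24 and 18 of 22), where 1 member of each list was called higher in controls.

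**Figure D2:**
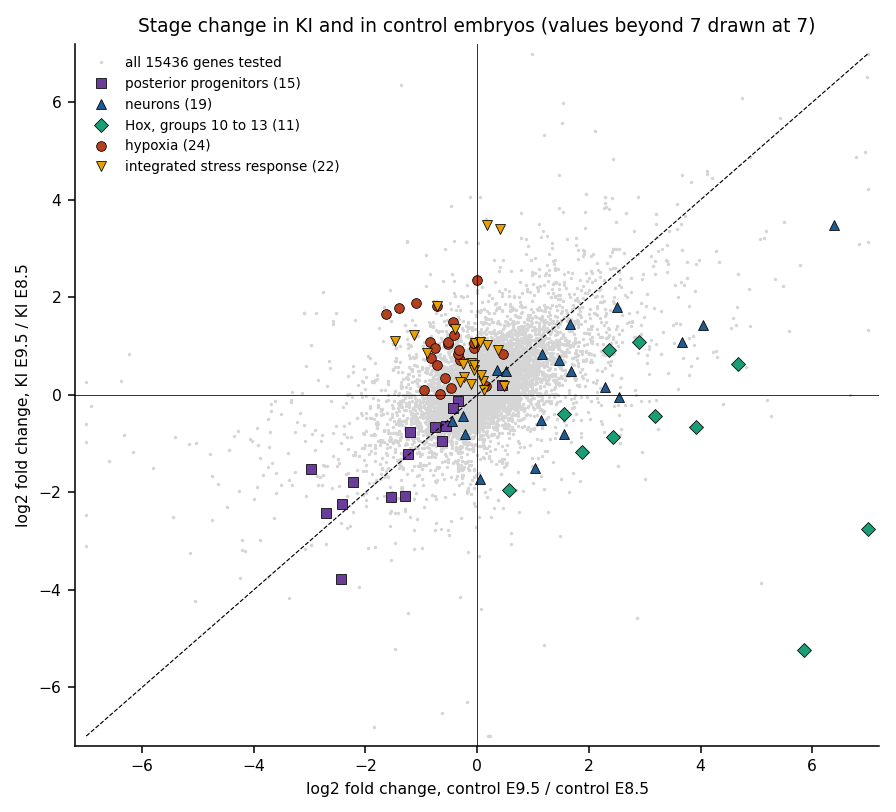
Each point is a gene, with its log2 fold change from E8.5 to E9.5 in controls on the x axis and in KI embryos on the y axis, the dashed line marking equal change, and values beyond 7 drawn at 7. Posterior progenitor genes lie near the line at negative values, most late Hox genes and 18 of 19 neuronal genes lie below it, and all 24 hypoxia and 20 of 22 stress response genes above it, where Hoxc12 and Hoxd12 rest on a group at 0 reads.

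The genes that keep the tail bud growing fell in KI embryos about as they did in controls. These are the transcription factors and signals of the bipotent progenitors that supply spinal cord and somites. Of 15 such genes, 12 fell in KI embryos and 10 in controls, beside 16.6% and 12.1% of all genes, with median log2 fold changes of -1.21 and -1.23. Among the tail-bud genes, Nkx1-2, a homeobox marker of these progenitors, stood at 54.3, 44.2 and 36.3 CPM at E8.5 and at 5.43, 2.09 and 2.23 CPM at E9.5. Every E9.5 embryo was far below every E8.5 embryo, a 13.8-fold drop on group means (log2 fold change -3.78, SE 0.43, adjusted p = 0.000253). T, the brachyury factor, went from 61.1, 67.1 and 49.6 CPM to 19.6, 11.7 and 10.9 CPM, again without overlap (log2 fold change -2.07, adjusted p = 0.0019). The caudal-type genes Cdx1 and Cdx2, which activate trunk Hox genes, fell by 2.43 and 2.24. Cdx4, on the X chromosome, fell from 39.6 ± 4.68 to 13.9 ± 3.29 CPM in KI embryos (SD, n = 3) and from 60.2 ± 14.9 to 7.69 ± 2.03 CPM in controls. Its fall in KI embryos was the smaller by 1.46 on the log2 scale (adjusted p = 0.0249), a call that was lost without KI E8.5 replicate 1 or 3, without control E9.5 replicate 1, and among the embryos with low Y-linked reads.

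Segmentation genes set the rhythm and boundaries of somites. Of 14, 8 fell in KI embryos (median -1.60), whereas 5 rose and 4 fell in controls (median -0.41). The difference was called for 6 of the 14, all in the direction of less RNA in KI embryos, against 3.24% of all genes, and for 4 among the embryos with low Y-linked reads. Summed over the list, KI embryos had 221.9 to 249.7 CPM at E8.5 and 146.8 to 180.3 CPM at E9.5. Dll3, a Notch ligand-like protein of the presomitic mesoderm that is also made in young neurons, was at 31.4, 35.7 and 26.5 CPM in KI embryos at E8.5 and at 14.3, 9.61 and 9.7 CPM at E9.5. All KI embryos at E9.5 lay below those at E8.5, while the 3 control embryos at E9.5 (37.1, 40.1 and 45.5 CPM) lay above their E8.5 group. The stage changes of Dll3 differed by -1.95 (SE 0.24, adjusted p = 0.000178). Hes7, the oscillating repressor of the clock, fell from 21.5 ± 5.09 to 3.33 ± 2.08 CPM (log2 fold change -2.68, adjusted p = 0.00906), Msgn1 by 3.04 and Tbx6 by 1.72, both regulators of presomitic fate. The call for Hes7 was lost among the embryos with low Y-linked reads.

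The Notch pathway genes Nrarp, Lfng and Dll1 rose in controls and did not pass the test in KI embryos. Nrarp, a Notch target that dampens the pathway, was at 43.9, 37.2 and 36.9 CPM in KI embryos at E8.5 and at 37.6, 34 and 36 CPM at E9.5. KI groups of Nrarp overlapped, while the controls went from 40.1 ± 2.39 to 94.7 ± 8.21 CPM (SD, n = 3). The difference was -1.37 (SE 0.13, adjusted p = 7.45e-06). Lfng and Dll1, a modulator and a ligand of the pathway, differed by -0.77 and -0.65 (adjusted p = 0.00437 and 0.00512), Dll1 without a call among the embryos with low Y-linked reads. In the Notch list 6 of 18 genes rose in KI embryos and 13 rose in controls, beside 15.9% and 12.2% of all genes. The difference was negative and called for 7 (5 to 8 over the alternatives), beside 3.24% of all genes. The vascular ligand Dll4 rose by 0.80, Jag2 by 0.77 and the fringe gene Mfng by 0.98 in KI embryos.

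Nodal signalling lays down the left side of the body for a short time around E8.5. Of 14 genes of the pathway and of laterality, 8 fell in KI embryos (median -2.11), and their summed level was 177.0 to 195.7 CPM at E8.5 and 122.4 to 138.6 CPM at E9.5. In controls 5 fell and 1 rose (median -0.53). All genes gave 16.6% lower in KI embryos, and 12.1% lower and 12.2% higher in controls. Lefty2, the Nodal antagonist of the left lateral plate, had 24.1, 14.2 and 9.53 CPM in KI embryos at E8.5 and 0, 0.501 and 0 CPM at E9.5. Lefty2 thus had reads in each KI embryo at the earlier stage and in 1 at the later one (adjusted p = 0.000441). Its fitted log2 fold change of -6.53 rests on that embryo and became -11.54 without it (KI E9.5 replicate 2). Control embryos had 0.0489 to 0.154 CPM of Lefty2 already at E8.5, and the difference between stage changes did not pass the test (adjusted p = 0.203). The co-receptor gene Cfc1 fell from 5.62 ± 1.31 to 0.293 ± 0.182 CPM, and Foxh1, the DNA-binding partner of activated Smads, from 23.4 ± 3.02 to 3.62 ± 0.182 CPM. Noto, a notochord and node homeobox gene, was at 2.62, 1.23 and 2.08 CPM and then at 0.0817, 0.167 and 0 CPM, all lower at E9.5. Its difference from the control change was -3.24 (adjusted p = 0.0233) and lost its call without any 1 of 4 embryos (KI E8.5 replicate 1, KI E9.5 replicate 3, control E8.5 replicate 3 and control E9.5 replicate 1). Nodal itself was low, at 1.20 ± 0.468 and 0.254 ± 0.223 CPM, and its call (adjusted p = 0.0493) was lost without any 1 KI embryo.

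Clustered Hox genes, which mark position along the body axis and are switched on in order from group 1 to group 13, separated by group. Of 38 tested, 8 rose and 12 fell in KI embryos, while 16 rose and 4 fell in controls. Beside these stand 15.9% and 16.6% of all genes in KI embryos and 12.2% and 12.1% in controls. The 8 became 5 without KI E9.5 replicate 3, and the 12 became 6 without KI E9.5 replicate 2 and 7 without KI E8.5 replicate 3. The 12 genes of groups 1 to 4 had median log2 fold changes of 0.12 in KI embryos and 0.06 in controls, and the 15 genes of groups 5 to 9 had -0.13 and 0.05. In groups 1 to 4 the difference was called positive for 2 of the 12, among them Hoxd1 (0.81). In the 11 genes of groups 10 to 13, which pattern the tail, the hindgut and genital region and the limbs, the medians were -0.66 in KI embryos (-0.43 with genes at 0 set to their bound) and 2.90 in controls. Of these 11, 10 rose in controls, 1 rose and 4 fell in KI embryos, and the difference was called negative for 10. Between 7 and 10 differences were called over the alternatives, the lowest without KI E8.5 replicate 1, and the 4 falls became 1 without KI E9.5 replicate 2 or 3.

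**Figure D3:**
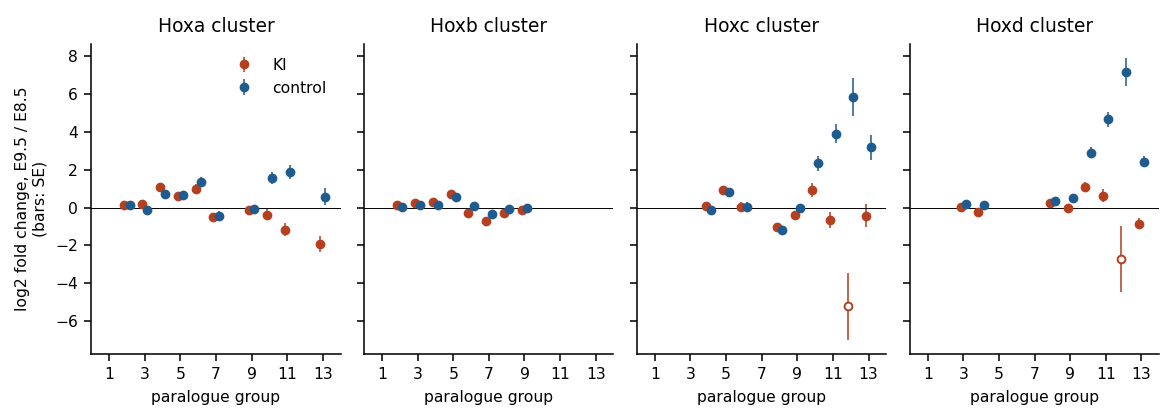
Log2 fold change from E8.5 to E9.5 with its standard error is plotted against paralogue group (2 to 13) in each of the 4 Hox clusters, KI embryos in red and controls in blue, with open symbols where a whole group had 0 reads. The 2 colours lie close together in groups 2 to 9 and separate in groups 10 to 13, where control values are positive.

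Hoxd11 stood at 2.08, 3.25 and 2.57 CPM in KI embryos at E8.5 and at 6.53, 2.46 and 3.22 CPM at E9.5. The KI groups overlapped, and the control embryos went from 0.501, 1.19 and 0.684 CPM to 15.8, 22.6 and 24.4 CPM. The stage changes differed by -4.04 (SE 0.51, adjusted p = 0.000299). Hoxd13, the last gene of its cluster, was at 2.39, 4.67 and 3.93 CPM and then at 2.82, 1.46 and 1.76 CPM in KI embryos, with overlap, against 2.14 ± 0.423 and 11.7 ± 1.08 CPM in controls (difference -3.29, adjusted p = 5.7e-05). Hoxd12 was listed at 0 reads in all 3 KI embryos at E9.5 and had 3.91, 5.87 and 5.53 CPM in the controls of that day. Hoxc12 was lower, with 0 reads in the 3 KI embryos at E9.5 and 1.72 to 2.45 CPM in controls. In KI embryos at E8.5, Hoxd12 had reads in 1 embryo (0.0943 CPM) and Hoxc12 in 2 (0.496 and 0.0903 CPM).

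Hoxa11 fell in KI embryos, from 17.6, 12.5 and 15.6 CPM to 7.8, 6.56 and 5.96 CPM. The groups did not overlap (log2 fold change -1.17, adjusted p = 0.0262), and controls moved the other way, from 4.36 ± 2.67 to 16.2 ± 3.96 CPM. The KI call was lost without KI E8.5 replicate 1 or 3 or KI E9.5 replicate 2 or 3, while the difference of -3.04 (adjusted p = 0.00553) kept its call in the alternatives other than the 2-fold minimum. Reads of Hoxa11os, an antisense RNA across Hoxa11, cannot be told from those of Hoxa11 because the use of strand is not given in the sources used here. Hoxa13 fell from 6.03 ± 0.979 to 1.56 ± 0.351 CPM in KI embryos (log2 fold change -1.95), and in controls it was near 1.01 and 1.53 CPM at the 2 stages. At E8.5 itself, KI embryos had more Hoxa13, Hoxa11 and Hoxa10 RNA than the 3 controls, without overlap in any of the 3 genes. The genotypes were not tested within E8.5, and the share of all genes without overlap there was not computed. Between the KI stages, groups without overlap were common (23.1% of all genes higher and 22.5% lower). Hoxd10 was the member of groups 10 to 13 that rose in KI embryos, from 3.47 ± 0.702 to 7.35 ± 0.728 CPM, and it rose more in controls (1.89 ± 0.904 to 14.4 ± 3.18 CPM, difference -1.82, adjusted p = 0.00706). In the anterior groups, Hoxa4 rose by 1.07 in KI embryos and 0.74 in controls.

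Tbx4, the hindlimb and allantois T-box gene, was among the 12 largest falls in KI embryos. It was at 73, 66.9 and 73.2 CPM at E8.5 and at 5.8, 9.36 and 8.75 CPM at E9.5. All 3 later embryos were far lower, an 8.91-fold drop (log2 fold change -3.16, SE 0.56, adjusted p = 0.00322). Control embryos at E8.5 scattered from 10.8 to 51.9 CPM, and the difference between stage changes missed the threshold (-2.03, adjusted p = 0.162). Cxcl14, a chemokine, also started high in KI embryos (21.4 ± 2.11 CPM) and fell to 6.5 ± 0.892 CPM, whereas controls went from 1.76 ± 0.986 to 5.08 ± 1.28 CPM (difference -3.22, SE 0.40, adjusted p = 0.000159).

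Proneural factors, the bHLH genes that commit progenitors to a neuronal fate, and their early targets rose in KI embryos. Of 15, 13 rose and 1, Dll3, fell in KI embryos, and 15 rose in controls, with medians of 2.69 and 3.21. The shares of all genes higher were 15.9% and 12.2%. All alternatives other than the 2-fold minimum gave 11 to 13 rises in KI. The difference was negative in 13 of the 15 and called for 2, both negative, beside 3.24% of all genes. Summed levels were 76.5 to 84.64 and then 120.6 to 129.7 CPM in KI embryos. In controls they were 94.38 to 94.78 and then 268.4 to 342.3 CPM. Neurog1, a determinant of sensory neurons, was at 0.361, 0.283 and 0.542 CPM at E8.5 and at 5.31, 4.55 and 5.84 CPM at E9.5. All 3 E9.5 embryos lay above 4 CPM and all 3 E8.5 embryos below 1 CPM (log2 fold change 3.70, SE 0.53, adjusted p = 0.000212). Insm1, a zinc-finger factor of newborn neurons, rose from 0.520 ± 0.141 to 5.92 ± 1.67 CPM in KI embryos and from 2.51 ± 1.16 to 31.1 ± 5.00 CPM in controls, and the difference did not pass the test (-0.15, adjusted p = 0.905). Nhlh1, Neurod1 and Nhlh2, which act after the first commitment step, reached means of 2.45, 3.08 and 1.49 CPM in KI embryos at E9.5 and of 14, 11.8 and 9.85 CPM in controls.

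Genes of differentiated neurons rose less often in KI embryos than in controls. Of 19 neuronal structural and RNA-binding genes, 7 rose and 4 fell in KI embryos (median 0.49), while 13 rose in controls (median 1.46). The difference was called for 8 of the 19, each of them lower in KI embryos, and its sign was negative in 18, beside 3.24% of all genes called in that direction. Over the alternatives 7 to 10 of these differences were called, and the 4 falls in KI embryos became 2 without KI E9.5 replicate 2. The summed level of the list ran from 149.5 to 161.1 CPM in KI embryos at E8.5 and from 150.7 to 161.8 CPM at E9.5, and in controls from 142.2 to 162.6 CPM and then from 386 to 573.7 CPM.

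Tubb3, the neuronal beta-tubulin, was at 28.6, 24.4 and 22.9 CPM in KI embryos at E8.5 and at 24.5, 25.8 and 23.1 CPM at E9.5. These groups overlapped fully. In controls Tubb3 went from 22.1 ± 3.19 to 129 ± 26.4 CPM, so that the stage changes differed by -2.59 (SE 0.20, adjusted p = 7.45e-06). Elavl3, an RNA-binding protein of postmitotic neurons, rose in both groups, from 2.26, 3.4 and 1.9 to 5.63, 6.01 and 4.29 CPM in KI embryos and to 35.2, 40.1 and 31.3 CPM in controls. The KI rise was smaller by 2.59 on the log2 scale (adjusted p = 3.49e-05). Stmn2 and Ina, a microtubule regulator and an intermediate filament, fell in KI embryos, from 21.8 ± 3.38 to 6.55 ± 1.70 CPM and from 10.6 ± 0.921 to 3.73 ± 0.677 CPM (log2 fold changes -1.73 and -1.50). Nefm, a neurofilament, stayed between 18.6 and 22.9 CPM in all 6 KI embryos and reached 84.8 ± 20.2 CPM in controls (difference -2.12, adjusted p = 1.68e-05). Dcx and Elavl4 rose in KI embryos by 3.49 and 1.81, and their differences from controls did not pass the test.

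Genes that name neuron classes moved in both directions in both genotypes. Of 19, 5 rose and 4 fell in KI embryos, while 11 rose and 6 fell in controls (of all genes, 15.9% rose and 16.6% fell in KI embryos), and the difference was called negative for 6 and positive for 1 (1 negative among the embryos with low Y-linked reads). Lhx3, a motor neuron homeobox gene, was at 0.0902, 0.519 and 0.136 CPM and then at 0.0817, 0.251 and 0.215 CPM in KI embryos. Both KI groups lay near the counting limit and overlapped, and control embryos at E9.5 had 4.46, 4.36 and 3.82 CPM (difference -5.69, adjusted p = 0.00178). Pou4f1, of sensory neurons, stayed at 6.47 ± 1.96 and 5.87 ± 1.75 CPM in KI embryos and went from 3.27 ± 1.01 to 14.8 ± 3.47 CPM in controls. Lhx9, which marks dorsal interneurons and limb mesenchyme, rose to 1.96 ± 0.483 CPM in KI embryos and 14.2 ± 3.03 CPM in controls (difference -3.12, adjusted p = 0.0295). Mir124a-1hg, the host transcript of a neuronal microRNA, reached 0.815 ± 0.427 and 6.24 ± 1.02 CPM (difference -2.97, adjusted p = 0.0438). The axonal adhesion gene Cntn2 reached 1.89 ± 0.124 CPM in KI embryos and 22.0 ± 8.48 CPM in controls (difference -2.62, adjusted p = 0.00594), and the acetylcholine receptor gene Chrna3 stayed at 2.01 ± 0.330 and 1.50 ± 0.0862 CPM in KI embryos against a control mean of 7.23 CPM at E9.5. The difference of Cntn2 was not called by limma-voom (adjusted p = 0.163). The differences of Lhx3 and Lhx9 were not called among the embryos with low Y-linked reads, and those of Lhx9 and Mir124a-1hg were lost without any 1 of 6 and of 8 embryos, among them KI E8.5 replicates 1 and 2 and KI E9.5 replicate 2 for both.

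Many neural progenitor and patterning genes rose in both genotypes, and some progenitor genes rose less in KI embryos. In KI embryos 8 of 16 progenitor genes rose, 9 of 16 dorsoventral domain genes rose and 10 of 20 brain region genes rose, beside 8, 9 and 9 in controls. The shares of all genes that rose were 15.9% in KI embryos and 12.2% in controls. The difference was called negative for 5 progenitor genes and 1 dorsoventral gene and positive for 3 brain region genes. All genes gave 3.24% negative and 3.39% positive differences. Among the embryos with low Y-linked reads edgeR called 0 of the progenitor differences negative, 7 having an unadjusted p under 0.05, and 1 brain region difference positive. Summed over the progenitor list, KI embryos had 705.6 to 766.8 CPM and then 831.6 to 1031 CPM, and controls 854.3 to 878.7 CPM and then 1221 to 1574 CPM. Zic1, a dorsal progenitor factor, went from 18.1, 18.7 and 17.9 CPM to 71.2, 89.3 and 72.5 CPM. Every later embryo was above every earlier one (log2 fold change 2.09, SE 0.21, adjusted p = 7.59e-05), and the control change was 1.94. Fabp7, of radial glia, rose by 2.10, Msi1 by 0.71, Olig3 by 1.38, Nkx2-2 by 2.08 and Prdm12 by 2.39. Olig2, the motor neuron progenitor factor, did not pass the test in KI embryos (4.36 ± 0.481 and 5.03 ± 0.910 CPM) and went from 7.40 ± 1.87 to 25.5 ± 3.06 CPM in controls (difference -1.58, adjusted p = 0.00163).

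En2, a midbrain-hindbrain boundary factor, was one of the 12 largest rises. Its KI values were 3.56, 3.3 and 7.68 CPM at E8.5 and 42.8, 48.8 and 42.8 CPM at E9.5. The KI embryos at E9.5 were above all others, a log2 fold change of 3.21 (SE 0.23, adjusted p = 1.93e-06). Controls began at 19.9 ± 1.53 and reached 36.4 ± 1.26 CPM (difference 2.33, adjusted p = 0.000892). Its relative En1 rose in KI embryos from 11 ± 1.59 to 23.2 ± 1.22 CPM and fell in controls from 27.6 ± 5.00 to 17.1 ± 1.32 CPM. Dlx1 and Dlx2, forebrain and branchial arch genes, rose by 2.40 and 1.36 in KI embryos, Dlx2 without a call among the embryos with low Y-linked reads.

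Neural crest, placode and mesoderm derivatives were examined next, where 15.9% of all genes rose and 16.6% fell. Of 18 crest genes, 7 rose and 2 fell in KI embryos (1 fall without KI E8.5 replicate 1 or KI E9.5 replicate 2 or 3), with Erbb3 at 11.2 ± 0.966 and 22.0 ± 1.14 CPM (difference from controls 0.93, adjusted p = 0.00908). Ngfr, a neurotrophin receptor, fell in KI embryos (39.8 ± 2.80 to 27.7 ± 0.864 CPM) and rose in controls (24.6 ± 0.556 to 41.7 ± 3.87 CPM). Of 16 placode and eye genes 8 rose, Foxe3 of the lens by 2.29 and Eya4 by 1.17. Pax8, of the ear and kidney, rose by 0.58 in KI embryos and fell by 0.59 in controls (difference 1.17, adjusted p = 0.00208). Among 15 intermediate mesoderm genes 7 rose and 3 fell, led by Upk3b, a mesothelial gene (2.10 ± 1.43 to 19.2 ± 3.88 CPM), and Wt1 (3.45 ± 1.52 to 17.6 ± 4.94 CPM), and Lhx1 fell by 1.31.

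Skeletal muscle genes, which the myotome switches on at about E9, stayed low in KI embryos. Of 10 tested, 6 rose in controls (median 2.47), and 1 rose and 2 fell in KI embryos (median -0.20, or -0.05 with genes at 0 set to their bound). The rise was lost without KI E8.5 replicate 2 or KI E9.5 replicate 2, and the falls became 1 without KI E9.5 replicate 3. Myf5, the first myogenic factor, was at 0.722, 0.471 and 0.181 CPM and then at 0.0817, 0.418 and 0.343 CPM in KI embryos. These groups overlapped, whereas control Myf5 went from 0.436 ± 0.162 to 2.66 ± 0.769 CPM (difference -3.27, adjusted p = 0.0226). Myh3, embryonic myosin, was at 0.252 ± 0.0856 CPM in KI embryos and 7.41 ± 2.92 CPM in controls at E9.5 (difference -4.24, adjusted p = 0.00326). Myog had reads in 1 of the 3 KI embryos at E9.5 (0.172 CPM) against 2.38, 3.46 and 3.29 CPM in controls, with a difference that did not pass the test (adjusted p = 0.592). The Myf5 call was lost without KI E8.5 replicate 1, without control E8.5 replicate 3 or control E9.5 replicate 1, and among the embryos with low Y-linked reads. Of 15 somite derivative genes 4 rose and 2 fell in KI embryos, near the 15.9% and 16.6% of all genes (1 fall without KI E9.5 replicate 3 or any 1 KI embryo at E8.5). Tbx18 of the anterior part of the somite rose by 1.34, and Tcf15 of the epithelial somite fell by 0.83. In the limb bud list 7 of 16 rose and 2 fell (1 without any 1 KI embryo at E8.5), with Alx4 at 24.4 ± 6.41 and 67.1 ± 11 CPM and Shox2 at 1.41 ± 0.355 and 3.73 ± 0.141 CPM.

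Some red cell genes rose in KI embryos, with wide variation between embryos. Of 26 erythroid genes 8 rose (median 2.28), beside 15.9% of all genes, and 3 rose in controls (median 1.38). Hbb-y, the embryonic beta-globin, was at 20.4, 11.5 and 31.7 CPM at E8.5 and at 253, 182 and 1016 CPM at E9.5. All later embryos exceeded the earlier ones, and replicate 3 at E9.5 was several times above the others (log2 fold change 4.51, SE 0.93, adjusted p = 0.0069). Over the alternatives other than the 2-fold minimum, the change of Hbb-y ran from 3.36 to 4.91, and not every alternative called it. Hba-x and Hbb-bh1, 2 further embryonic globins, were at 73.0 ± 21.2 and 544 ± 512 CPM and at 74.6 ± 19.9 and 430 ± 384 CPM. Hba-a1, whose reads are uncertain because Hba-a2 is nearly identical, and Slc4a1, the red cell anion exchanger, rose by 2.99 and 3.74. Without KI E9.5 replicate 3 the log2 fold changes of Hba-x, Hbb-bh1, Hba-a1 and Slc4a1 became 1.77, 1.48, 1.89 and 2.35. Hba-a1 lost its call without KI E8.5 replicate 1 or 3 or KI E9.5 replicate 3, and Slc4a1 without any 1 KI embryo at E8.5. Both were also not called when the 6 KI libraries were fitted alone (adjusted p = 0.0911 and 0.0645), and Slc4a1 not by limma-voom (adjusted p = 0.213). The count of 8 became 1, 3 and 2 without KI E8.5 replicates 1, 2 and 3, 3 without KI E9.5 replicate 3 and 14 with DESeq2. Among the embryos with low Y-linked reads edgeR called 0 of the 26, 5 of them having an unadjusted p under 0.05. In whole embryos, more cells of a type and more RNA per cell cannot be told apart, here and in every list of cell type genes.

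Summed over the list, erythroid RNA ran from 320.7 to 616 CPM in KI embryos at E8.5, below the 1316 to 2734 CPM of controls, and from 1306 to 6288 CPM at E9.5 beside 6448 to 17150 CPM. Blood progenitor genes gave 1 rise (2 without KI E9.5 replicate 1) and 2 falls among 14 in KI embryos, with the platelet integrin Itga2b falling from 12.1 ± 0.621 to 5.89 ± 0.594 CPM. In the macrophage list 6 genes passed the filter and the summed level stayed at 7.45 to 10.96 and 5.35 to 8.58 CPM. Of 27 endothelial genes 5 were higher (3 without KI E8.5 replicate 1 or 2) and 6 lower, beside 15.9% and 16.6% of all genes. Etv2, which starts the blood and vessel lineages, fell from 15, 22.5 and 17.6 CPM to 2.16, 2.88 and 1.97 CPM in KI embryos. No later embryo came near the earlier ones (log2 fold change -2.97, SE 0.21, adjusted p = 3.37e-08), and in controls the fall was larger by 1.25 (adjusted p = 0.0219), a call lost without any 1 of 4 embryos (KI E8.5 replicate 1, KI E9.5 replicate 2 and replicate 2 of the controls at either stage). Robo4 and Dll4, of vessels, rose by 1.79 and 0.80.

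Few heart muscle genes passed the test in either genotype. Of 23, 2 rose and 1 fell in KI embryos and 6 fell in controls, beside 12.1% of all genes, and the difference was positive in 21, with 1 called (not called among the embryos with low Y-linked reads). Myh6, the alpha-myosin heavy chain, was at 449, 404 and 322 CPM at E8.5 and 431, 309 and 202 CPM at E9.5. The KI groups overlapped, and controls went from 258 ± 48 to 120 ± 16.9 CPM (difference 0.79, adjusted p = 0.292). Ryr2, the calcium release channel, gave the call (17.6 ± 4.25 and 19.5 ± 2.48 CPM in KI, 16.4 ± 4.71 and 7.10 ± 0.253 CPM in controls, 1.35, adjusted p = 0.00899). The rises of Nppa and Tnni3, atrial natriuretic peptide and cardiac troponin I, lost their calls without any 1 KI embryo. Of 18 cardiac regulators 4 fell in KI embryos and 11 in controls, beside 16.6% and 12.1% of all genes. Gata6 was at 76.8 ± 9.48 and 89.7 ± 6.13 CPM in KI embryos and fell in controls from 50.8 ± 2.89 to 27.7 ± 3.30 CPM (difference 1.1, adjusted p = 8.84e-05), and Nkx2-5 was at 33.8 ± 7.46 and 24.4 ± 5.90 CPM in KI embryos and fell to 6.09 ± 1.28 CPM in controls.

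Genes of extraembryonic tissues bear on which tissues came with the embryos. Visceral endoderm RNA varied widely at E8.5: Apob, its lipoprotein gene, was at 125, 3.68 and 32.3 CPM in KI embryos at E8.5 and at 44, 21.3 and 6.44 CPM at E9.5. The KI groups overlapped, and controls at E9.5 had 0.703 to 1.17 CPM. Summed over the list, KI embryos had 174.1 to 777.8 CPM and then 227.8 to 451.1 CPM, and controls 235.4 to 945.2 CPM and then 135.7 to 161.6 CPM. In controls 12 of 23 members fell and 1 rose, beside 12.1% and 12.2% of all genes. In KI embryos 0 fell and 1 rose, beside 16.6% and 15.9% of all genes, and the rise was Alb in both genotypes. The difference was positive in 21 of 23, with 0 called by edgeR, 4 at an unadjusted p under 0.05 and 3 called by DESeq2. Of 18 trophoblast genes 7 passed the filter, 1 rising and 2 falling in KI embryos (1 fall without any 1 KI embryo other than E8.5 replicate 2), and the defining spongiotrophoblast genes Tpbpa and Tpbpb were at 0 reads. Plac1 fell from 25.2 ± 5.12 to 4.71 ± 0.786 CPM in KI embryos, and the epithelial keratin Krt8, not confined to trophoblast, from 448 ± 51.9 to 232 ± 3.02 CPM, a call that held only without E8.5 replicate 2 when 1 KI embryo was left out. The part of these tissues in other results was not tested. Among gut endoderm genes Foxf1, of the surrounding mesenchyme, fell from 51.3 ± 4.26 to 21.7 ± 1.04 CPM in KI embryos and from 31.9 ± 4.04 to 7.0 ± 0.268 CPM in controls.

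Most hypoxia genes rose in KI embryos, and 11 of 24 fell in controls. HIF factors, stabilised at low oxygen, act on these genes, which widen oxygen supply and turn metabolism away from respiration. Of 24 HIF target genes outside glycolysis 19 rose in KI embryos (median log2 fold change 0.96), beside 15.9% of all genes, and all 24 fitted changes were positive. In controls 1 rose, 11 fell and the others did not pass the test (median -0.52). The difference was called positive for 18, beside 3.39% of all genes, with 12 to 20 over the alternatives. The lowest count came from summing embryos that share a title number, and 15 were called among the embryos with low Y-linked reads. The summed level was 2011 to 2474 CPM in KI embryos at E8.5 and 3564 to 3902 CPM at E9.5, against 1473 to 2241 CPM and then 1223 to 1407 CPM in controls.

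The promoters of some hypoxia and stress response genes with positive differences are shown, picked without a rule and each holding a match. Other genes of both lists held no match. HIF binds a core of the letters ACGTG, and ATF4, the factor of the integrated stress response, binds elements of the form TGATGNAAN. The windows run from 250 bases before to 50 after the start site, 300 bases in all, from RefSeq (GRCm38.p6), 5′ to 3′ on the strand of the gene. Capitals mark stretches that match the letters on either strand, in the first 3 windows ACGTG and in the last 2 TGATGNAAN. The windows are, for Bnip3, chr7:138909457-138909756 (minus strand); for Ppp1r3c, chr19:36736555-36736854 (minus strand); for Bhlhe41, chr6:145865371-145865670 (minus strand); for Chac1, chr2:119350992-119351291 (plus strand); and for Trib3, chr2:152344011-152344310 (minus strand).
Bnip3: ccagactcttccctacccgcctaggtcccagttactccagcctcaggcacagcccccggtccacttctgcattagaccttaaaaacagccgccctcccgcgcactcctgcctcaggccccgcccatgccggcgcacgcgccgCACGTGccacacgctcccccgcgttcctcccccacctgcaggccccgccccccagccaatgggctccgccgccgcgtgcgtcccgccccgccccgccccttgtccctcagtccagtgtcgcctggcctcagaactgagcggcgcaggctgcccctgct
Ppp1r3c: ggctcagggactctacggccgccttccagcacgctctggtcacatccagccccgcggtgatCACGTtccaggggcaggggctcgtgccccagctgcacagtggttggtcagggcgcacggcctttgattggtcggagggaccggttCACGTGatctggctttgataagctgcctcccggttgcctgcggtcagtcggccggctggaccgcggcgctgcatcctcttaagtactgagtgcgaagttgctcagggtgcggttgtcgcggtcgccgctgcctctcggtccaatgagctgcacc
Bhlhe41: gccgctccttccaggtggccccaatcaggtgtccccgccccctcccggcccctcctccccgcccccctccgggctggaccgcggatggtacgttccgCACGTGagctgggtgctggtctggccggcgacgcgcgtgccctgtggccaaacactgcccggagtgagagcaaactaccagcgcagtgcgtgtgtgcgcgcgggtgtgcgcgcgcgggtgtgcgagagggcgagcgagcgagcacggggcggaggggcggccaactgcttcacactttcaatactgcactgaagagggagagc
Chac1: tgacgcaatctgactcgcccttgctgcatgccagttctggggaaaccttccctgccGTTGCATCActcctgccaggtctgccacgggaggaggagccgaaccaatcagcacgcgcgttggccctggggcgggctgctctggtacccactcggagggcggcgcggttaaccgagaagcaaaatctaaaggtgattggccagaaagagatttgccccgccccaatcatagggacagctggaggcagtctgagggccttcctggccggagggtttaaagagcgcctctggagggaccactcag
Trib3: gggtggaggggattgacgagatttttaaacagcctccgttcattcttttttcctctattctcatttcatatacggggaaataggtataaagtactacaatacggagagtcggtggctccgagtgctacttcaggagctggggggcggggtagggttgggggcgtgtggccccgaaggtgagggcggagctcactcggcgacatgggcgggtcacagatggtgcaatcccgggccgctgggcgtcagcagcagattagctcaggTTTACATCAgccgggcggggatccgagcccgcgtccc

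In these windows the capitals begin at -108 from the start site in Bnip3, at -189 and -104 in Ppp1r3c, at -153 in Bhlhe41, at -194 in Chac1 and at 13 in Trib3. ACGTG was present on either strand in 16 of the 21 hypoxia genes with a window (76.2%), in 28.5% of 11802 tested genes with a window and in 21.8% of all 27025 genes. TGATGNAAN was present in 9 of 23 stress response genes (39.1%) and in none of the 21 hypoxia genes, beside 2.69% of tested genes and 4.5% of all genes. ACGTG was also present in 9 of the 23 stress response genes. A stretch CACGTG reads the same on both strands and holds ACGTG on each. A match is a description of the letters, not a bound site or a cause.

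Bhlhe41, a transcriptional repressor, was at 5.32, 7.45 and 6.01 CPM in KI embryos at E8.5 and at 22.4, 26.4 and 16.1 CPM at E9.5. All later KI embryos were above all earlier ones, while controls went down from 4.65 ± 2.57 to 1.79 ± 0.363 CPM. The difference was 3.18 (SE 0.46, adjusted p = 0.000952). Ppp1r3c, a glycogen-targeting phosphatase subunit, went from 9.25, 13.4 and 5.06 to 25.3, 30.4 and 32.2 CPM in KI embryos and from 4.56, 9.97 and 4.35 to 2.23, 1.91 and 2.02 CPM in controls. Neither pair of groups overlapped, and the directions were opposite (difference 3.30, adjusted p = 0.00574). Adm, the vasodilator adrenomedullin, rose from 7.67 ± 2.00 to 28.4 ± 4.32 CPM (difference 2.99, adjusted p = 0.00778). Vegfa, the vessel growth factor, rose from 114 ± 9.79 to 223 ± 13.2 CPM in KI embryos, beside 91.7 ± 10.3 and 88.5 ± 4.52 CPM in controls (difference 1.01, SE 0.11, adjusted p = 2.46e-05).

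Further HIF targets also rose in KI embryos. Bnip3, a mitophagy receptor, rose from 116, 144 and 110 CPM to 244, 264 and 272 CPM in KI embryos. The later embryos were all above the earlier ones, and in controls the groups overlapped (109 ± 35.4 and 60.5 ± 12.7 CPM). The difference of 1.93 (adjusted p = 0.0179) was lost without control E9.5 replicate 2. Egln3, an oxygen-sensing hydroxylase, rose by 0.76 and Pdk1, which blocks pyruvate entry into mitochondria, by 0.92, with differences of 1.59 and 1.25 (Pdk1 not called without control E9.5 replicate 2). Ero1a, of disulfide formation, rose by 1.23 and Pfkfb3, a glycolytic switch, by 0.95, with differences of 1.65 and 1.70. The differences of Bnip3, Pdk1 and Pfkfb3 were also not called when embryos that share a title number were summed (adjusted p = 0.0572 for Pfkfb3), nor those of Bnip3 and Pdk1 among the embryos with low Y-linked reads. Bhlhe40, a repressor, and Ddit4, an mTORC1 inhibitor that is also on the stress response list, rose by 2.35 and 1.83, but their differences missed the threshold (adjusted p = 0.093 and 0.0791), and the rise of Ddit4 was lost without KI E8.5 replicate 1 or 3 or KI E9.5 replicate 2 or 3. Outside the list, Ndufa4l2, a mitochondrial protein known as HIF-responsive, was at 3.03 ± 0.676 and 7.79 ± 2.31 CPM in KI embryos and at 5.29 ± 1.22 and 1.57 ± 0.444 CPM in controls (difference 3.12, adjusted p = 0.00014).

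Integrated stress response genes, the ATF4 targets that cells use when amino acids or protein folding fail, rose in KI embryos and mostly did not pass the test in controls. Of 22, 18 rose in KI embryos (median 0.76, beside 15.9% of all genes) and all 22 fitted changes were positive, while 1 rose and 6 fell in controls (median -0.06). The difference was called positive for 13, beside 3.39% of all genes, and for 11 to 15 over the alternatives. Chac1, a glutathione-degrading enzyme, was at 1.4, 2.45 and 2.03 CPM in KI embryos at E8.5 and at 24, 19.1 and 22.6 CPM at E9.5. The 3 KI embryos at E9.5 stood apart from all 9 others, which had at most 2.45 CPM (log2 fold change 3.48, SE 0.25, adjusted p = 3.37e-08; difference 3.30, adjusted p = 4.24e-05). Trib3, a pseudokinase that restrains ATF4, had 2.26, 3.02 and 0.903 CPM and then 22.9, 17.6 and 24.4 CPM in KI embryos. Control embryos had 1.45 to 4.22 CPM of Trib3 at either stage, below every KI embryo at E9.5 (difference 2.99, adjusted p = 0.00553).

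Sesn2, a leucine sensor that inhibits mTORC1, rose from 25.9 ± 3.5 to 65.7 ± 6.83 CPM (difference 1.74, SE 0.16, adjusted p = 7.45e-06). Asns, which makes asparagine, rose from 55.4 ± 4.21 to 116 ± 13.4 CPM in KI embryos and was at 61.7 ± 1.41 and 59.8 ± 2.02 CPM in controls. Stc2, a secreted glycoprotein, and Pck2, the mitochondrial PEPCK, rose by 1.23 and 1.08, with differences of 2.36 and 1.02. Ddit3, the CHOP factor, rose from 10.9 ± 2.34 to 22.1 ± 3.38 CPM, and its difference missed the threshold (0.83, adjusted p = 0.0781). Immediate early genes, which respond within minutes to stimuli, had 5 of 15 called higher in KI embryos (2 without KI E8.5 replicate 1 or KI E9.5 replicate 2, 3 without KI E8.5 replicate 2 or KI E9.5 replicate 1) and 7 in controls, with summed levels of 328.6 to 464.5 and 526.1 to 764.7 CPM in KI embryos and of 287 to 374.5 and 515.8 to 684.7 CPM in controls. Of 19 p53 target genes 8 rose (5 without KI E8.5 replicate 1 or 3 or KI E9.5 replicate 3) and 2 fell in KI embryos (1 without KI E8.5 replicate 2 or KI E9.5 replicate 2), beside 3 and 1 in controls. For the immediate early and p53 lists, the shares of all genes were 15.9% higher and 16.6% lower in KI embryos. In controls these shares were 12.2% and 12.1%.

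Some glycolytic genes rose in KI embryos, and most fell in controls. Of 19 glucose transporters and enzymes 8 rose in KI embryos (median 0.26), beside 15.9% of all genes. In controls 15 fell and 1 rose (median -0.46), beside 12.1% and 12.2% of all genes. The difference was called positive for 15 and negative for 1, beside 3.39% and 3.24% of all genes (10 positive among the embryos with low Y-linked reads). Slc2a1, the GLUT1 transporter, was at 1088, 1089 and 921 CPM in KI embryos at E8.5 and at 1112, 1132 and 1006 CPM at E9.5. The KI groups overlapped, and controls went from 1099 ± 64.3 to 529 ± 51.5 CPM (difference 1.12, SE 0.11, adjusted p = 1.09e-05). Slc2a3, the GLUT3 transporter, was at 1380 ± 186 and 1202 ± 39.6 CPM in KI embryos and fell to 320 ± 87.2 CPM in controls. Pgk1 rose from 1774 ± 74.2 to 2340 ± 91.0 CPM in KI embryos and fell from 1718 ± 186 to 1067 ± 100 CPM in controls (difference 1.09, adjusted p = 1.09e-05). Pfkp and Aldoc, a phosphofructokinase and an aldolase, rose by 0.77 and 1.43 and had differences of 1.98 and 2.73, and Ldhb, which favours lactate use, rose in both genotypes and was the member with a negative difference (-0.52, a call lost without KI E8.5 replicate 3, KI E9.5 replicate 2, control E8.5 replicate 3 or control E9.5 replicate 2, with embryos that share a title number summed, and among the embryos with low Y-linked reads). Eno1 and Pkm, among the most abundant of these RNAs, did not pass the test in KI embryos (log2 fold change 0.00 for each) and fell by 0.42 and 0.43 in controls.

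**Figure D4:**
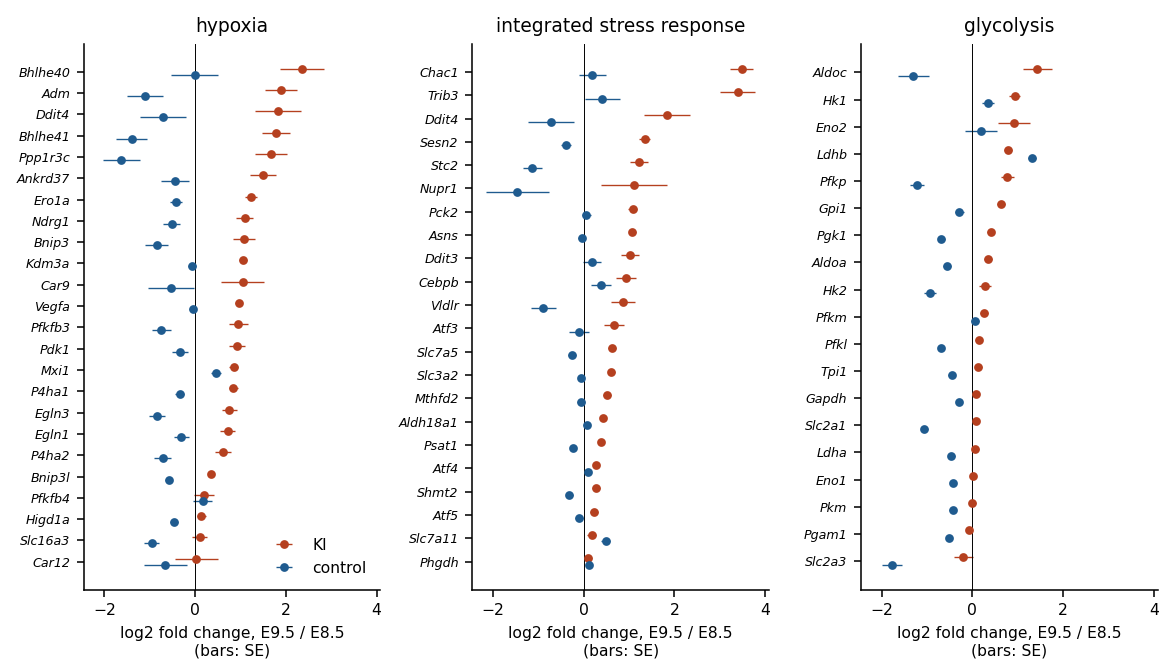
Log2 fold change from E8.5 to E9.5 with its standard error is shown for each hypoxia, integrated stress response and glycolysis gene, KI embryos in red and controls in blue. All 24 hypoxia and all 22 stress response values of KI embryos lie above 0, and 22 of the 24 hypoxia values of controls lie below 0.

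More cell cycle and respiratory chain genes were called lower than higher in KI embryos, with small median changes. For comparison, 16.6% of all genes were lower and 15.9% higher in KI embryos, and 12.1% and 12.2% in controls. Of 26 cell cycle genes 16 fell and 0 rose (median -0.21), against 5 falls and 2 rises in controls, and 10 fell among the embryos with low Y-linked reads. Ccne1, the cyclin of S-phase entry, was at 119, 114 and 120 CPM at E8.5 and at 64.4, 55.2 and 43.6 CPM at E9.5 in KI embryos. All later KI embryos were lower, while controls were at 121 ± 7.19 CPM at E8.5 and 109 ± 1.43 CPM at E9.5 (difference -0.95, SE 0.14, adjusted p = 0.000472). Cdc6, Ccnd1, Rrm2 and Pcna, of replication and the G1 phase, fell by 0.62, 0.49, 0.49 and 0.35. Nuclear-encoded respiratory chain genes had 25 of 73 called lower and 4 higher (median -0.15), beside 2 lower and 8 higher in controls (median 0.00). The 25 became 14 without KI E9.5 replicate 3, 16 without KI E8.5 replicate 1 or 2 or KI E9.5 replicate 2, and 33 without KI E9.5 replicate 1. Atp5g1, an ATP synthase subunit, fell from 124 ± 6.48 to 81.7 ± 11.2 CPM. Cox6a2, the muscle form of its cytochrome oxidase subunit, went the other way, from 0.331 ± 0.290 to 4.16 ± 0.644 CPM.

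Signalling genes were called in both directions, and several counts lie near the 15.9% of all genes higher and 16.6% lower. Wnt genes were split (8 of 28 higher, 5 without KI E8.5 replicate 1 or 3, and 9 lower), with Wnt8a of the posterior embryo falling from 3.58 ± 1.24 to 0.483 ± 0.286 CPM, Wnt2 by 1.47 and Wnt9a rising by 1.45. Notum, a secreted Wnt inhibitor, rose in KI embryos (8.37 ± 1.75 to 13.3 ± 0.955 CPM, a call lost without KI E8.5 replicate 1 or KI E9.5 replicate 2 or 3) and fell in controls (17.7 ± 0.935 to 10.1 ± 3.63 CPM), a difference of 1.47 (adjusted p = 0.00486). Of 20 Fgf genes 9 fell and 4 rose in KI embryos, with the ligands Fgf3, Fgf4 and Fgf17 and the feedback inhibitor Spry4 falling by 1.09, 1.56, 0.94 and 1.12, and 1 rose without KI E8.5 replicate 2. The fall of Fgf4 lost its call without KI E8.5 replicate 1 (-0.99) or KI E9.5 replicate 2 or 3, and that of Fgf17 among the embryos with low Y-linked reads. Retinoic acid genes gave 6 rises and 4 falls among 17. Cyp26a1, which degrades the acid in the tail bud, fell from 38.0 ± 2.90 to 16.4 ± 5.67 CPM, and Aldh1a3, which makes it in the eye, rose from 2.65 ± 1.16 to 17.8 ± 1.42 CPM. Hedgehog genes had 6 rises and 4 falls among 16, with Gas1 at 134 ± 18.8 and 258 ± 11.8 CPM. In the BMP list 5 of 20 rose, Id2 from 96.7 ± 5.37 to 149 ± 18.4 CPM (difference 0.57, adjusted p = 0.00427).

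Matrix genes of mesenchyme rose in part in both genotypes. Of 24, 12 rose and 4 fell in KI embryos (beside 15.9% and 16.6% of all genes), 8 rose and 3 fell in controls (beside 12.2% and 12.1%), and the summed levels overlapped between the stages (3932 to 5454 and 4230 to 5317 CPM in KI embryos, 2947 to 3263 and 2918 to 3826 CPM in controls). For the difference edgeR called 0 and DESeq2 0, with 3 at an unadjusted p under 0.05. The 4 falls became 2 or 1 without any 1 KI embryo other than E8.5 replicate 2. Col3a1, a fibrillar collagen, went from 43.8, 37.4 and 80.6 CPM to 380, 449 and 332 CPM in KI embryos. The groups were well apart (log2 fold change 2.84, SE 0.34, adjusted p = 0.000384), and the control change was 2.04. Dcn and Lum, small leucine-rich proteoglycans, and Col6a3 rose by 2.54, 2.18 and 2.19, the last 2 calls being lost without KI E8.5 replicate 1 or 2 among others. Outside the list, Itih2, a hyaluronan-binding protein, led the 12 largest rises, from 0, 0 and 0.542 CPM to 10.6, 6.85 and 11.4 CPM. Controls rose alike (0.164 ± 0.203 to 6.76 ± 2.22 CPM). Dnm3os and Mir100hg, host transcripts of microRNAs, rose by 3.91 and 3.07 in KI embryos and 3.58 and 3.41 in controls.

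Imprinted genes are expressed from 1 parental allele. Of 27, 5 rose (3 without KI E8.5 replicate 1 or 2 or KI E9.5 replicate 2) and 8 fell in KI embryos, where 15.9% and 16.6% of all genes did, and 4 rose and 8 fell in controls. Phlda2, a growth-restricting gene of placenta and yolk sac, was at 123, 109 and 102 CPM and then at 7.88, 8.77 and 7.94 CPM. All later KI embryos were far lower, a 13.6-fold drop (log2 fold change -3.77, SE 0.29, adjusted p = 2.42e-05), and controls fell by 4.24 from a lower level (48.6 ± 18.4 CPM). Cdkn1c, a cell cycle inhibitor of the same imprinted cluster, fell from 706 ± 101 to 322 ± 21.8 CPM in KI embryos and was at 236 ± 94.1 and 334 ± 30.5 CPM in controls (difference -1.63, adjusted p = 0.0305, a call that held only without replicate 2 of KI or of controls at E8.5 or without control E9.5 replicate 3 when 1 embryo was left out). The difference of Cdkn1c was also not called with the title number as a replicate block (adjusted p = 0.0544) or with embryos that share a number summed (adjusted p = 0.123). Pou5f1, the pluripotency factor, fell from 4.12 ± 1.87 to 0.225 ± 0.133 CPM, and Dnmt3b, a DNA methyltransferase, from 108 ± 13.2 to 41.1 ± 4.04 CPM. Lin28a, which holds back let-7, fell from 720 ± 44.2 to 374 ± 32.1 CPM in KI embryos and from 751 ± 74.7 to 256 ± 24.4 CPM in controls, the smaller fall being in KI (difference 0.61, adjusted p = 0.00437). Tet2 and Tet1, which oxidise methylcytosine, rose in KI embryos from 17.9 ± 0.336 to 43.2 ± 4.64 CPM and from 30.4 ± 1.90 to 45.5 ± 5.64 CPM, and Tet1 fell in controls (difference 1.19, adjusted p = 0.000194). The H3K4 demethylase genes Kdm5a and Kdm5b rose by 0.35 and 0.24 in KI embryos, with differences of 0.48 and 0.46. With the trend on transcript length removed both rises lost their calls (0.14 and 0.11), as did the difference of Kdm5a (0.32), and the rise of Tet1 became 0.32. The difference of Kdm5a was also lost without KI E8.5 replicate 2 or 3, KI E9.5 replicate 2 or control E8.5 replicate 1 or 3.

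Other genes with large changes belonged to no list. Mmp9, a matrix protease, fell from 10.3 ± 3.16 to 1.30 ± 0.066 CPM in KI embryos, and the X-linked genes Nxf7 and Pcsk1n, an mRNA export factor and a secretory protein, from 14 ± 1.76 to 1.52 ± 0.619 and from 13.5 ± 1.91 to 2.37 ± 0.391 CPM. Both X-linked falls were also called among the embryos with low Y-linked reads. H1f3, a linker histone, rose from 3.84 ± 1.14 to 11.1 ± 2.31 CPM and fell in controls (difference 3.06, adjusted p = 0.00515). Pmepa1, a TGF-beta target, was at 2.15 ± 0.0258 and 3.63 ± 0.692 CPM in KI embryos and rose from 0.437 ± 0.143 to 5.68 ± 1.67 CPM in controls (difference -2.93, adjusted p = 0.000516).

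**Figure D5:**
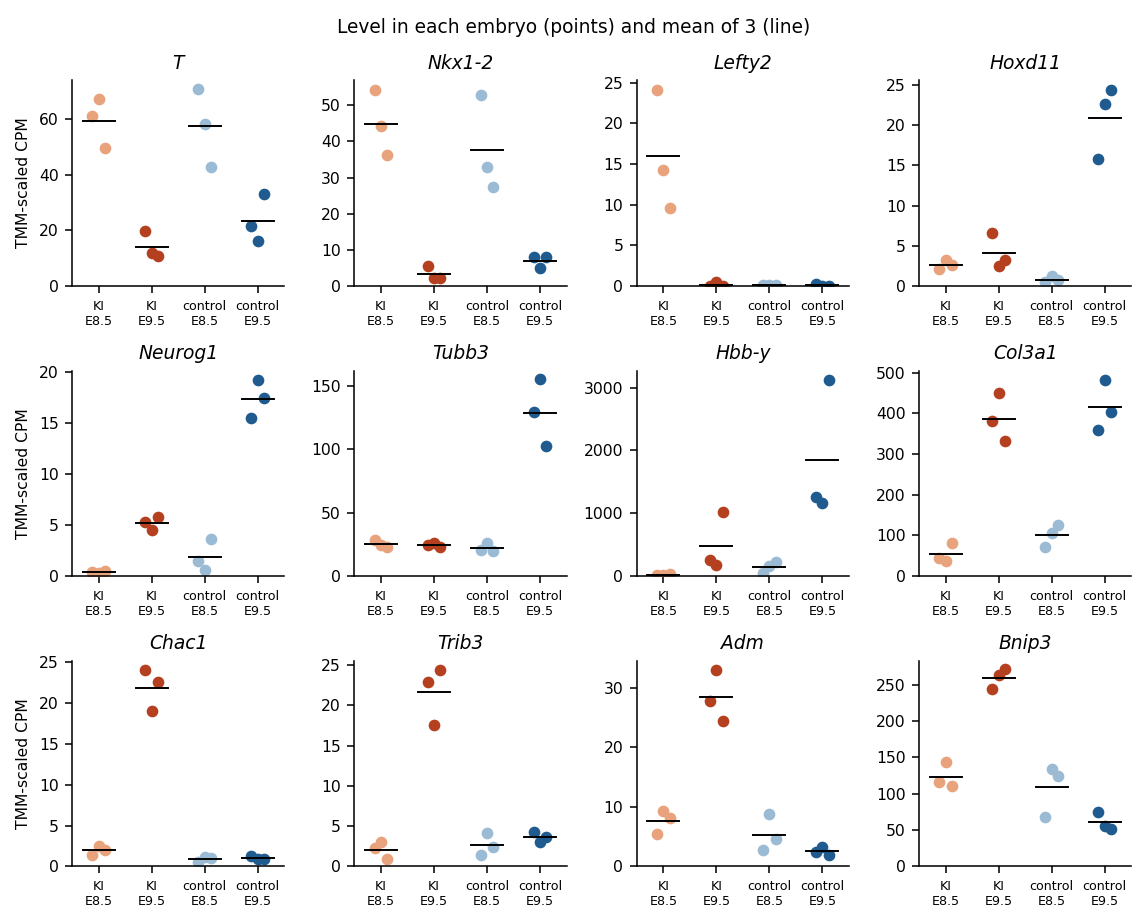
CPM of 12 genes is plotted for each of the 12 embryos in 4 groups, with points for embryos and a line for the mean of 3. T, Nkx1-2 and Lefty2 are low in all KI embryos at E9.5, Hoxd11 and Tubb3 are high in the 3 control embryos of that day alone, and Chac1, Trib3, Adm and Bnip3 are highest in the 3 KI embryos at E9.5.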

How the data were processed

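RNA of 12 whole embryos was sequenced after poly(A) selection, per the labels' protocols. The authors deposited 1 table per library with read counts and RPKM for 29082 RefSeq transcripts, per the file headers. The submitters' processing notes name bcl2fastq, Bowtie2, STAR, SICER 1.1 and mm9, without roles, and the counter, annotation version and use of strand are not given in the sources used here. RPKM equalled reads divided by transcript length and library total, and was not used in tests. Transcripts were named through RefSeq, 28436 of 29082 matching, and for each gene the transcript with most reads over all libraries was kept. The kept transcripts held 71.71% of the reads of a library's table (median of the 12 embryo libraries). Counts were fitted in 1 edgeR 4.0.16 model (R 4.3.3) of the 4 embryo groups, with filterByExpr at 10 reads, TMM scaling and the robust quasi-likelihood test. A standard error is the fold change divided by the root of F. DESeq2 1.42.0, limma 3.58.1 with voom, other scalings, filters, transcript sums, a 2-fold minimum, and leaving out each embryo were alternatives. On simulated counts the test recovered 78% of 2-fold KI changes and 58% of 2-fold differences, with 5.29% and 4.76% of calls false. The simulation changed 50 genes per fold size, all above 1 CPM and only in KI embryos at E9.5. It held no effect of sex or title number, so its rates need not hold for the real calls.

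Members and lists were chosen with earlier results of these data known. Genes were named as the 12 largest rises and falls among called genes with at least 5 CPM and groups that did not overlap, the 8 largest differences in each direction, up to 4 called members per list with at least 1 CPM, the member of each list with the smallest adjusted p of the difference, any member where a count was 5 or fewer, and Kmt2c and Kmt2d. Chosen after their values were seen were Hoxa10, Hoxd1, Hoxc11, Hoxc12, Hoxc13, Hoxd11, Hoxd12, Elavl3, Nefm, Pou4f1, Lhx3, Myf5, Myog, Lfng, Dll1, Bnip3, Egln3, Pdk1, Ero1a, Pfkfb3, Slc2a1, Slc2a3, Asns, Stc2, Ddit3, Pck2, Apob, Myh6, Nkx2-5, Pcna, Hba-x, Hbb-bh1, Xist, Nodal, Eno1 and Pkm, and the differences of Hoxd10, Cdkn1c, Erbb3, Pfkp, Ldhb and Kdm5a. Some genes are not reported here.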

Additional observations from a re-analysis of the deposited data

Results flagged for a closer look

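The KI and control stage changes differed by a test of the difference itself for 1024 genes, and those whose values the results give, with others named for their difference, are listed here as log2 values, KI minus control (edgeR, adjusted p under 0.05). Of 84 such differences, 30 lost their call in at least 1 alternative other than the 2-fold minimum, and 9 in 8 or more (Cdkn1c, Etv2, Kcnq1ot1, Lhx8, Lhx9, Mir124a-1hg, Pcna, Pkm and Rpl17). With the trend on transcript length removed Kcnq1ot1 was at 0.38 (adjusted p = 0.339). No other rule applied, because groups of 3 embryos were not tested for outlying samples. Positive differences among stress and metabolic genes were Chac1 3.30, Trib3 2.99, Sesn2 1.74, Asns 1.11, Stc2 2.36 and Pck2 1.02 of the stress response. Those of hypoxia genes were Ppp1r3c 3.30, Bhlhe41 3.18, Adm 2.99, Bnip3 1.93, Egln3 1.59, Pdk1 1.25, Ero1a 1.65, Pfkfb3 1.70 and Vegfa 1.01, with Ndufa4l2 at 3.12. Those of glycolysis were Aldoc 2.73, Slc2a1 1.12, Slc2a3 1.57, Pgk1 1.09, Pfkp 1.98, Eno1 0.42 and Pkm 0.44. Other positive differences were H1f3 3.06, Eda2r 2.01, En2 2.33, En1 1.76, Cdx4 1.46, Etv2 1.25, Nkx2-5 1.45, Ryr2 1.35, Gata6 1.1, Foxf1 0.94, Kit 0.45, Pax8 1.17, Notum 1.47, Dhrs3 1.38, Spry2 0.61, Id2 0.57, Lin28a 0.61, Kcnq1ot1 0.80, Tet1 1.19, Erbb3 0.93, Kdm5a 0.48, Kdm5b 0.46 and Rpl17 0.31.

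Hoxd1 had 0.81. Negative differences among Hox genes were Hoxd13 -3.29, Hoxd11 -4.04, Hoxc11 -4.58, Hoxc13 -3.61, Hoxa10 -1.94, Hoxd10 -1.82, Hoxa11 -3.04 and Hoxa11os -3.30. Fitted values of -11.09 for Hoxc12 and -9.93 for Hoxd12 rest on a group with 0 reads, depend on the prior count and are no bounds. Neuronal genes gave Tubb3 -2.59, Elavl3 -2.59, Nefm -2.12, Pou4f1 -2.31, Lhx3 -5.69, Lhx9 -3.12, Mir124a-1hg -2.97, Chrna3 -2.95, Cntn2 -2.62, Olig2 -1.58 and Lhx2 -0.87. Segmentation and muscle genes gave Dll3 -1.95, Nrarp -1.37, Lfng -0.77, Dll1 -0.65, Myf5 -3.27 and Myh3 -4.24. The others were Cxcl14 -3.22, Pmepa1 -2.93, Noto -3.24, Lhx8 -3.21, Ngfr -1.28, Ccne1 -0.95, Pcna -0.33, Cdkn1c -1.63, Ldhb -0.52 and Cox6a1 -0.51.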

How the results depend on the processing

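No paired analysis was possible because no title number occurs at both stages, so the KI stage change has no block. Over the alternatives other than the 2-fold minimum, 4220 of the values of named genes in KI embryos stayed on their side of the threshold, 231 lost their call and 21 gained one. For the difference, 1860 stayed and 156 lost their call. No called value reversed, and 35 values of 13 genes that were called neither way changed sign (Apob, Eno1, Hoxc13, Lhx3, Lhx8, Myog, Pkm, Pou4f1, Ryr2, Slc2a1, Ttn, Ttr and Tubb3, all in the KI stage change). Tested against a 2-fold minimum, 118 KI changes, 268 control changes and 32 differences were called, through the test's stricter null. Summing embryos that share a title number left 614 differences. Leaving out each embryo gave 3715 to 4865 KI changes, 2527 to 3825 control changes and 607 to 1175 differences. Chosen after seeing the data, the 9 embryos with low Y-linked reads (under 5 CPM over 4 genes) gave 3896 KI changes, 2042 control changes and 483 differences, and the title number as a replicate block gave 1547 differences, 1013 of them shared. Deviations of same-number KI and control embryos correlated at 0.103 to 0.261 at E8.5 and at -0.02 to 0.117 at E9.5, where 1 number holds 2 embryos of each genotype, so although each embryo correlated best with one of its own number, not every pair was over 0.1 and the numbers were not taken as pairs. The number as a random effect in limma-voom (correlation 0.126) gave 1275 differences. Causes of these shifts were not tested, apart from the fewer embryos in some fits. At these depths 3 reads equal 0.108 to 0.150 CPM, which limits genes such as Hoxd12 and Myog.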
